A study of Arabidopsis thaliana with 24 samples.

Results

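Transcripts of 13 Arabidopsis thaliana genes were higher in every array from plants on soil than in every array from seedlings on a nutrient medium. The array annotation names these genes by an AT locus ID alone, without a symbol. They are read by 14 probe sets, since AT5G50740 has a pair of them, and were chosen by their measured values. Of 11933 probe sets that name 1 gene by its locus ID alone (11798 genes), 5017 (4969 genes) reached a mean intensity of at least 60 in some set of arrays. A probe set was kept if its lowest soil set mean exceeded its highest medium set mean by at least 0.8 on the log2(intensity + 7) scale, a difference called the gap here. The seedlings and the whole plants on soil had to lie less than 1 apart on that scale, and so had sets 22 and 23. Of 17 probe sets with such a gap, 3 failed the limit between seedlings and plants and none failed the other, which left 14, or 0.279% of the 5017.

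The study hybridised biotin-labelled total RNA of accession Col-0, the common laboratory strain, to 24 one-colour arrays in 8 sets of 3 (A, B and C). All plants stood in continuous light. The soil plants grew at 23 °C with 65% relative humidity: set 7 held the green parts of seedlings, and sets 22, 23 and 24 held whole plants, past the transition and before bolting; their labels are alike. Green parts of seedlings raised on a medium labelled 0.5x GM, at 20 °C and with no humidity given, make up sets 96, 97, 100 and ATGE_101. Sets 97 and ATGE_101 had 5% sucrose in it, and for sets 96 and 97 the labels add that most plants looked like those of set 7. Substrate, temperature and the stated humidity therefore change together between soil and medium and cannot be told apart. Whole plants were taken from soil alone. How sets 96 and 97 otherwise differ from sets 100 and ATGE_101, such as in age, is not reported here. These pairs of medium sets cannot be taken as repeats of each other. Whether the arrays of a set stand for separate cultures is not in the labels, so each p-value measures the spread between these samples, which may be technical.

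A nutrient medium offers mineral salts in ready solution, while roots in soil draw minerals from an uneven matrix that they share with microbes. Sucrose in a medium is a source of carbon beside photosynthesis. It is also a signal in plants, known to lower transcripts of sugar starvation and to raise those of storage and of several defence pathways. The sources used here give no product, family or function for the 13 loci, so they are described by their levels alone.

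The arrays, deposited with a 2% trimmed mean of 100, had median intensities of 36.1 to 40.3 on soil and 35.2 to 43.0 on medium. The highest intensity of an array was 5655 to 7373 on soil and 3240 to 5075 on medium, with no overlap. Arrays of a set correlated at a mean r of 0.981 to 0.990. LHCB4.1, an antenna protein of photosystem II and the single named gene of 15 on the green leaf list, had set means of 4599 to 5394 on soil and 3286 to 3910 on medium. Of 16 listed root genes 5 were named and 3 tested, and the summed set means of the 5 were 41.5 to 768 on soil and 1034 to 2727 on medium. PYK10, a beta-glucosidase of root endoplasmic reticulum bodies, was at 12.6 to 747 on soil and 1000.3 to 2644 on medium. Soil and medium set means were 12.1 to 21.7 and 7.68 to 21.9 for EXPA18, 5.24 to 9.10 and 8.29 to 10.9 for EXPA7, 2.08 to 3.95 and 5.03 to 10.7 for AT1G30870, and 0.769 to 1.21 and 1.67 to 41.2 for AT5G17820. None of 9 floral and 6 seed genes had a probe set that names it, so those organs were not checked. The 3' to 5' ratio of the ubiquitin control probe sets, a sign of RNA quality, was 2.88 to 4.35 on soil arrays and 1.79 to 2.76 on medium arrays, with no overlap, that of actin was 5.36 to 11.5 and 2.26 to 8.94, and that of GAPDH 0.897 to 2.81 and 1.11 to 1.59. All 3 arrays of set 7 had a lower GAPDH ratio, at 0.897 to 0.984, than any other array. The part of root markers and of RNA quality in the soil values below was not tested. The BioB spike-in, a control added at low concentration, was lowest on arrays 100 A and ATGE_101_A, at 22.6 and 38.0. It was 52.1 to 90.5 on the other medium arrays and 73.6 to 136 on soil.

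For all 14 probe sets, each of the 12 soil arrays lay above each of the 12 medium arrays. Among 15477 probe sets tested 5.71% had that order, but nothing is read from the comparison because the same contrast chose the genes. In whole tissue, fewer cells of a type and less RNA per cell cannot be told apart. The ratio of the soil to the medium median ran from 2.48 to 8.74, with a median of 3.74 over the 14. All values are intensities on a linear scale unless called log2, and no probe set's level is set against another's.

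The widest gap was that of AT3G26960, at 2.16 on the log2 scale. Its soil arrays ran from 146 to 295 with a median of 195, and its medium arrays from 11.5 to 32.6 with a median of 25.0. The soil median was thus 7.81 times the medium median, and the lowest medium set was 96, at 12.5 ± 0.926 (SD, n = 3). AT1G52770, with a gap of 1.83, ran from 41.2 to 66.0 with a median of 50.3 on soil. On medium it ran from 1.25 to 9.84 with a median of 5.76, so all of its medium arrays lay under 22.8, the 40th percentile of the table that served as the filter on low values. Its ratio of medians, 8.74, was the highest of the 14 and rests on medium values near the floor of the arrays. AT1G76620, with a gap of 1.05, was the other gene under that percentile on every medium array, at 7.30 to 20.8 with a median of 16.6, and it ran from 44.2 to 76.7 with a median of 53.8 on soil.

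AT4G34950 and AT1G73600 stayed well above the filter intensity on medium as well. AT4G34950 (gap 1.62) ran from 588 to 1457 with a median of 991 on soil and from 210.2 to 296 with a median of 236 on medium, a ratio of medians of 4.20. AT1G73600 (gap 1.31) ran from 644 to 1350.1 with a median of 1118 on soil and from 103 to 345 with a median of 152 on medium, a ratio of 7.34. The medium arrays of AT4G34950 were close to each other, while those of AT1G73600 spread widely, with the 3 highest all in set 97.

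AT5G52540 (gap 1.05) ran from 197 to 480.2 with a median of 419.9 on soil and from 50.2 to 107 with a median of 83.6 on medium. AT5G15950 (gap 0.95) ran from 173 to 428 with a median of 301 and from 49.7 to 96.9 with a median of 69.9. AT5G45650 (gap 0.93) ran from 129 to 284 with a median of 175 and from 30.7 to 81.3 with a median of 59.0. These 3 had ratios of medians of 5.02, 4.30 and 2.96, and none of their medium arrays fell under the filter intensity. AT5G44400 (gap 0.89) ran from 88.9 to 195 with a median of 136 on soil and from 23.1 to 64.8 with a median of 40.6 on medium.

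The paired probe sets of AT5G50740 share a gene and are not independent. Probe set 248526_at (gap 1.05) ran from 61.9 to 194 with a median of 114 on soil and from 18.4 to 46.0 with a median of 30.6 on medium. Probe set 248527_at (gap 1.02) ran from 56.9 to 96.9 with a median of 73.9 and from 14.2 to 30.5 with a median of 22.6. Both were highest in set 7, but the lowest soil set was 22 for the former and 23 for the latter.

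The last 3 lay just inside the limit of 0.8. AT3G14890 (gap 0.89) ran from 43.9 to 69.5 with a median of 56.5 on soil and from 14.5 to 32.5 with a median of 21.9 on medium. AT3G60440 (gap 0.87) ran from 60.7 to 120.3 with a median of 84.5 and from 16.9 to 42.1 with a median of 22.5. AT5G41460 (gap 0.80) ran from 70.0 to 106 with a median of 80.7 and from 18.0 to 48.1 with a median of 32.6. Just outside lay AT5G15050, AT3G13560 and AT5G13520, each with a gap of 0.79, so the limit cuts through a continuous range. In all, 8 of the 14 had at least 1 medium array under the filter intensity and none had a soil array under it. The medium arrays alone took 12 of the 14 through the filter, which asks for 3 arrays above it; AT1G52770 and AT1G76620 passed only through their soil arrays.

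**Figure D1:**
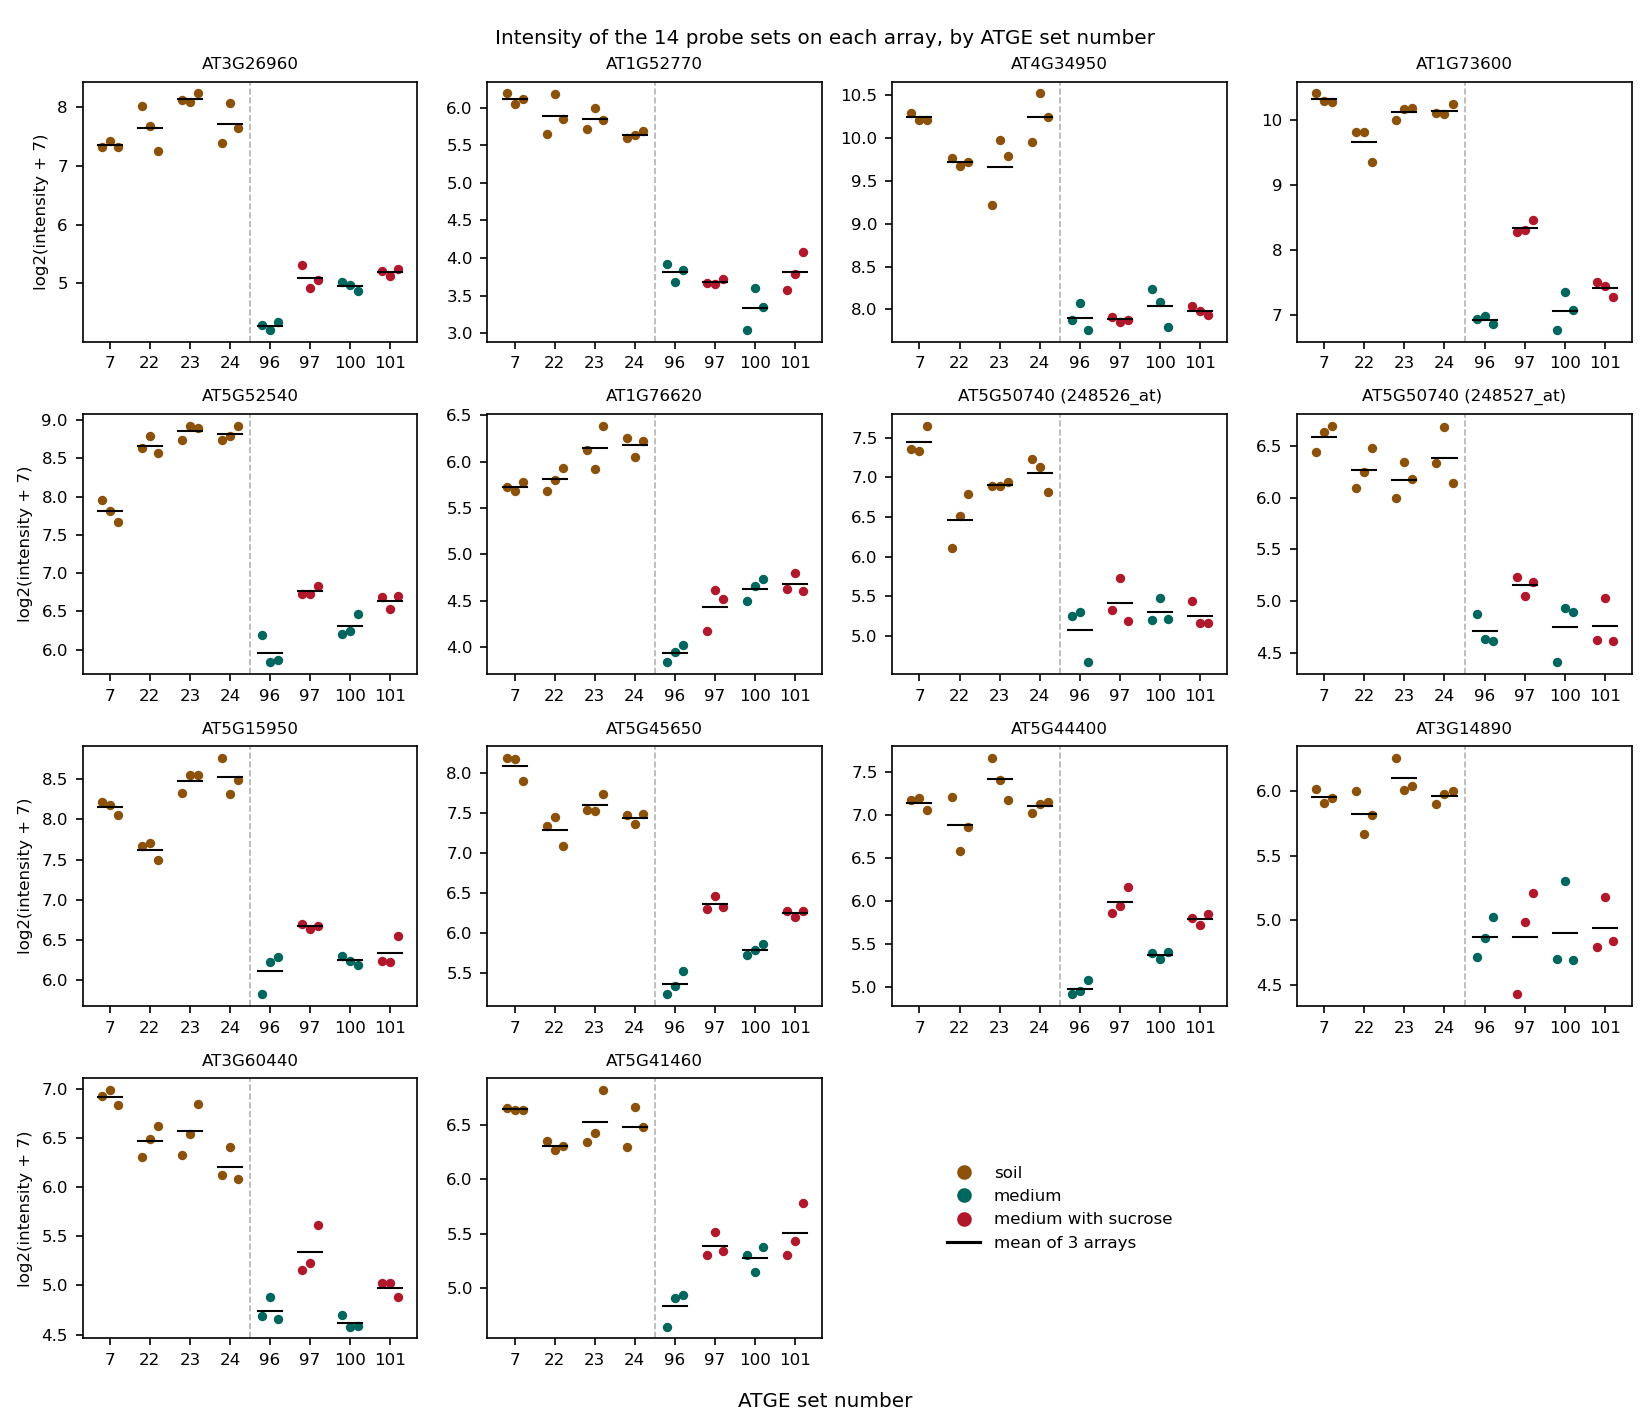
Intensity on the scale log2(intensity + 7) of each of the 14 probe sets (panels) on each array (points), by set number, with a line at the mean of 3 arrays. Soil sets 7, 22, 23 and 24 stand left of the dashed line and medium sets right of it, and in every panel all 12 soil points lie above all 12 medium points.

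Among all 5017 locus-only probe sets at this level the median gap was -0.41, and 940 had a gap above 0. Leaving out arrays 100 A and ATGE_101_A, a choice made after seeing the data, gave 13 probe sets by the same limits in place of 14.

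**Figure D2:**
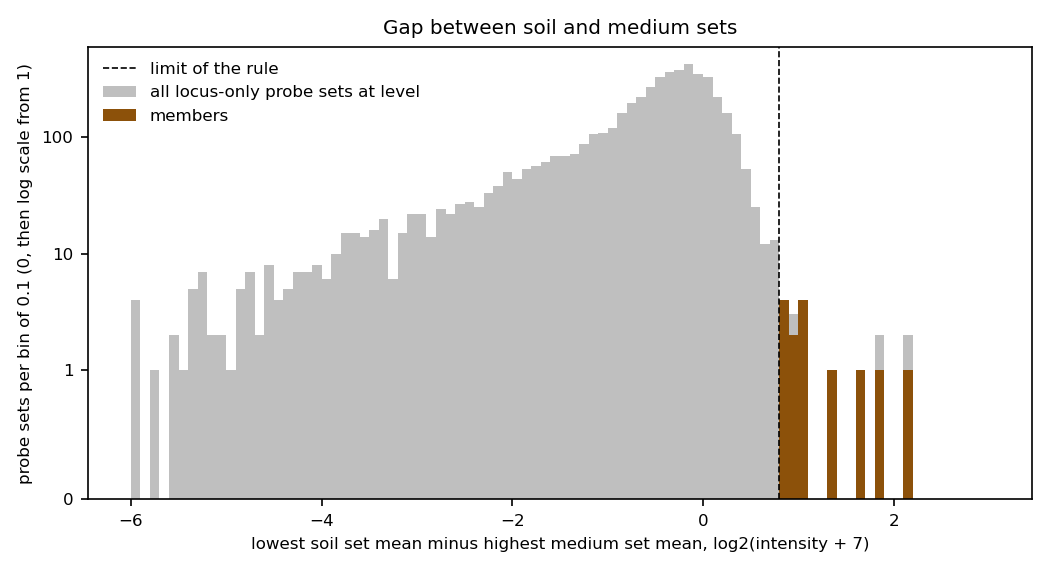
Number of locus-only probe sets in bins of 0.1 (log scale above 1) by gap, the lowest soil set mean minus the highest medium set mean on the scale log2(intensity + 7). The 14 chosen probe sets (brown) lie at 0.80 to 2.16, right of the limit of 0.8; 7 probe sets with a gap under -6 are not drawn.

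Within the soil regime the seedlings of set 7 were the highest set for 8 of the 14 and the lowest for 3. Set 22 was the lowest for 7 and the highest for none. For AT4G34950 sets 7 and 24 were nearly tied, at 10.2354 and 10.2348 on the log2 scale. Set 7 stood above the mean of the whole plants for 9 and below it for 5. The choice of genes bounds this difference to less than 1, so it is given without a test. The counts among the soil sets were not set beside a share over all probe sets, so nothing is read from them. AT5G52540 was near that bound, at 219 ± 22.7 in set 7 against 399.9 ± 31.2, 456 ± 32.1 and 445 ± 30.5 in sets 22, 23 and 24 (SD, n = 3). AT5G45650 went the other way, at 265 ± 29.6 in set 7 against 150.5 ± 20.1, 187 ± 16.7 and 167 ± 8.11. No array of set 7 overlapped those of the whole plants for either gene, but these genes had the largest differences each way among the 14. How many of all probe sets have such an order was not counted.

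Set 7 and set 96 are both green parts of seedlings without added sucrose, and most plants of set 96 looked like those of set 7 by its labels. Between them the log2 difference ran from 1.09 for AT3G14890 to 3.39 for AT1G73600, with a median of 2.17. AT1G73600 stood at 1350.1, 1248 and 1226 on the arrays of set 7 and at 116, 119.5 and 109.6 on those of set 96. AT3G14890 stood at 57.7, 53.0 and 54.5 and at 19.2, 22.2 and 25.6. This contrast is part of the choice as well and has no test.

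Sets 24 and 23, whole plants with the same labels, were compared next. The mean of each entered the choice of genes, so the test is not independent of it. No probe set of the 14 was called between them, where a call is an adjusted p under 0.05 in limma's moderated test over all 15477 probe sets, against 0.853% of all probe sets, 0.420% higher and 0.433% lower. Unadjusted, 4 of the 14 had a p under 0.05, beside 13.7% of all probe sets. For 5 of the 14 every array of set 24 lay below every array of set 23, an order that 5.97% of all probe sets had. AT4G34950 had the largest difference, with 588, 999 and 875 on the arrays of set 23 and 983, 1457 and 1200.0 on those of set 24, which is 0.58 on the log2 scale (adjusted p = 0.08). Its arrays overlapped, and it was called without array 23 B (0.73, adjusted p = 0.044), without 24 A (0.72, adjusted p = 0.033), or with 4 times the pseudocount (0.56, adjusted p = 0.043). AT3G26960, at 272, 264 and 295 and 161, 264 and 193 (log2 difference -0.44, adjusted p = 0.2), was called without array 24 B (-0.63, adjusted p = 0.034). Without single arrays the adjusted p of these genes ran from 0.033 to 0.25 and from 0.034 to 0.51. Of all probe sets tested 65 were higher in set 24 and 67 lower, and 48 and 93 after scaling to a common 75th percentile.

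Levels on medium were not uniform. Set 96 was the lowest medium set for 11 of the 14, set 100 for 2 and set 97 for 1. The highest was set 97 for 8, set ATGE_101 for 5 and set 100 for 1. Thus 13 of the 14 were highest in a set with sucrose, some by a small margin. For AT1G52770 sets ATGE_101 and 96 were nearly tied, at 3.8136 and 3.8096 on the log2 scale. The medium set means of AT3G14890 ran only from 22.3 in set 96 to 23.8 in set ATGE_101. The counts among the medium sets were not set beside a share over all probe sets, so nothing is read from them. The choice of genes asks for no order among the medium sets, but it used their means and caps the highest of them, so the tests between them that follow are not independent of it.

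In the first pair, sucrose went with higher levels of most of these genes. Of the 14 probe sets 10 were called higher in set 97 than in set 96 and none lower, while 33.1% of all probe sets passed the test, 20.9% higher and 12.2% lower. The median log2 difference was 0.56 over the 14 and 0.08 over all probe sets. For the 10 called, the 3 arrays with sucrose lay above the 3 without, an order that 32.1% of all probe sets had. Without any one array the count was 9 or 10. One of the 10 is AT1G76620, tested only through its soil arrays; among the 12 that passed the filter on medium alone, 9 were called.

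AT1G73600 rose most, from 116, 119.5 and 109.6 on the arrays of set 96 to 303, 310.2 and 345 on those of set 97, a log2 difference of 1.42 (adjusted p = 4.9e-08). AT5G44400 rose from 23.1, 23.9 and 26.7 to 51.0, 54.3 and 64.8, by 1.01 (adjusted p = 4.3e-06). AT5G45650 rose from 30.7, 33.5 and 39.3 to 71.7, 81.3 and 73.3, by 0.99 (adjusted p = 3.7e-07). All 3 stayed below every soil array with sucrose too, and the lowest soil arrays were 644, 88.9 and 129. For the set means, the choice of genes requires such an order.

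Smaller rises followed. AT3G26960 rose from 12.6, 11.5 and 13.3 to 32.6, 23.5 and 26.2 (0.81, adjusted p = 0.00041), and AT5G52540 from 65.8, 50.2 and 51.3 to 99.4, 99.1 and 107 (0.80, adjusted p = 6.6e-06). AT3G60440, AT5G41460, AT5G15950 and AT1G76620 rose by 0.59, 0.56, 0.56 and 0.50, with adjusted p of 0.0015, 0.0025, 0.0016 and 0.0029. The probe sets of AT5G50740 disagreed in call: 248527_at rose by 0.45 (adjusted p = 0.035), and 248526_at had a log2 difference of 0.34 (adjusted p = 0.15). The former lost its call without array 96 B, 96 C, 97 A or 97 C (adjusted p = 0.086 to 0.11), after quantile normalization (0.29, adjusted p = 0.21), at a common 75th percentile (0.054), with no filter (0.058) and with 4 times the pseudocount (0.066).

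A further 3 genes were not called. AT4G34950 stood at 228, 263 and 210.2 without and 235, 225 and 229 with sucrose, a log2 difference of -0.02 with a 95% interval of -0.34 to 0.30. AT3G14890 stood at 19.2, 22.2 and 25.6 and 14.5, 24.6 and 30.0, a difference of 0.01 with an interval of -0.35 to 0.36. AT1G52770 differed by -0.12 with an interval of -0.42 to 0.17, at 8.11, 5.77 and 7.29 and 5.75, 5.62 and 6.24, all under the filter intensity. The arrays of the pair overlapped for each of them.

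In the second pair, ATGE_101 against 100, fewer of the genes passed the test. Of the 14, 4 were called higher and none lower, beside 9.91% and 6.77% (16.7% together) of all probe sets, and the median log2 difference was 0.24 against 0.03. AT5G45650 rose from 46.2, 48.2 and 51.3 to 70.4, 66.7 and 70.3 (0.46, adjusted p = 0.0042), AT5G44400 from 35.1, 32.9 and 35.4 to 48.5, 45.8 and 50.6 (0.42, adjusted p = 0.03) and AT5G52540 from 67.0, 68.7 and 81.5 to 95.8, 85.7 and 97.2 (0.33, adjusted p = 0.034). These 3 genes were called higher in the first pair too. All arrays with sucrose lay above all without for them and for AT3G26960 and AT3G60440, which were not called; 22.7% of all probe sets had that order. AT1G52770, not called in the first pair, rose from 1.25, 5.15 and 3.19 to 4.94, 6.82 and 9.84 (0.48, adjusted p = 0.021), but its arrays overlapped and lay under the filter intensity, and it was tested only through its soil arrays. Without it and AT1G76620, 3 of 12 were called. AT3G60440 (0.36, adjusted p = 0.067) and AT1G73600 (0.34, adjusted p = 0.075) missed the threshold. The other 8 lay between -0.06 for AT4G34950 (95% interval -0.38 to 0.26) and 0.24 for AT3G26960 (-0.09 to 0.57).

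The calls of the second pair rest on few arrays. Without arrays 100 A and ATGE_101_A, those of lowest BioB, none of the 14 was called, and AT5G45650 then had a log2 difference of 0.41 (adjusted p = 0.055, range over its alternatives 0.0019 to 0.055). Leaving out single arrays gave 1 call without 100 A or ATGE_101_C and 2 without 100 C, ATGE_101_A or ATGE_101_B, with a highest count of 5. AT5G45650 was called without any single array. AT5G44400 lost its call without any 1 of the 6 arrays of the pair (adjusted p = 0.052 to 0.098), AT5G52540 without 100 A, 100 B, ATGE_101_A or ATGE_101_C (0.093 to 0.12), and AT1G52770 without 100 A, 100 C, ATGE_101_B or ATGE_101_C (0.051 to 0.13). Counts of 2 were also found after quantile normalization and with 4 times the pseudocount.

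**Figure D3:**
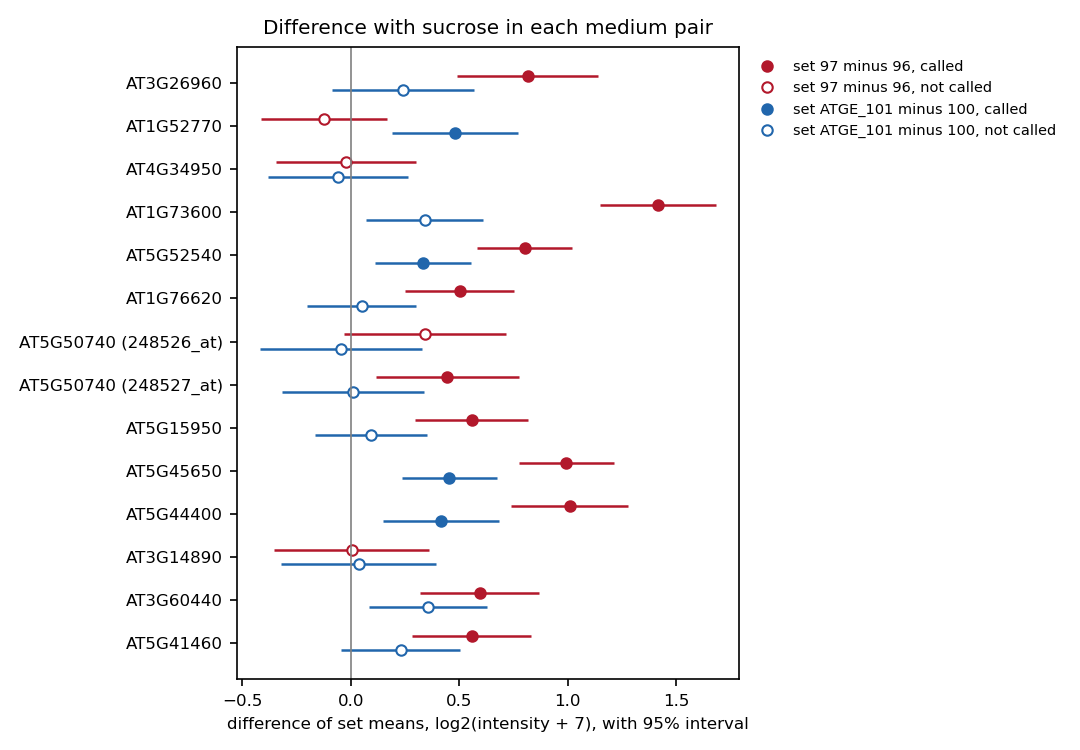
Difference of set means with sucrose on the scale log2(intensity + 7), with 95% intervals from limma, for set 97 minus 96 (red) and ATGE_101 minus 100 (blue); filled points were called. In the first pair 10 of 14 points are filled, led by AT1G73600 at 1.42, and in the second 4, none above 0.48.

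The difference between the sucrose effects of the pairs was tested itself. It was called for 4 of the 14, all with a smaller effect in the second pair, while 12.0% of all probe sets passed the test, 5.38% higher there and 6.63% lower. The median difference was -0.44 over the 14 and -0.04 over all probe sets. For AT1G73600 it was -1.07 (95% interval -1.45 to -0.70, adjusted p = 0.00071): the gene stood at 115 ± 5.05 and 319 ± 22.5 in the first pair and at 129 ± 26.9 and 164 ± 14.1 in the second (SD, n = 3). Its call held without any single array, with adjusted p of 0.00014 to 0.003.

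The other 3 were the genes called higher in both pairs. AT5G44400 had a difference of -0.59 (adjusted p = 0.038), AT5G45650 of -0.54 (adjusted p = 0.022) and AT5G52540 of -0.47 (adjusted p = 0.046). All 3 calls depended on single arrays: AT5G45650 lost its call without 96 A, 97 B, 100 C or ATGE_101_B (0.051 to 0.06), AT5G44400 without any of the 12 medium arrays but 96 C and 97 A (0.053 to 0.1), and AT5G52540 without 7 B, 23 B or any medium array but 96 A and 100 A (0.051 to 0.13). The count was 1 without 97 B, 100 C or ATGE_101_B, 2 without 96 A, 96 B, 97 C or ATGE_101_C, and 6 without 22 C, which enters through the shared estimate of the spread. Without both arrays of lowest BioB it was 2. AT1G52770 had a difference the other way, at 0.61 (adjusted p = 0.05), just over the threshold. It was called with the pseudocount divided by 4 (1.10, adjusted p = 0.03), with the stricter filter (0.036) and with the replicate block (0.043). It was also called without 22 A, 22 B, 22 C, 100 B or ATGE_101_A (0.022 to 0.048). All of its medium arrays lay under the filter intensity and it was tested only through its soil arrays, so nothing is read from these calls. Among the 12 that passed the filter on medium alone, 4 were called, all lower.

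The medium sets of the same sucrose level were also compared with each other; these comparisons share their sets with the sucrose pairs. Without sucrose, set 100 was called higher than set 96 for 6 of the 14 and lower for 1, beside 17.7% and 12.7% (30.5% together) of all probe sets, with a median log2 difference of 0.18 against 0.05. AT1G76620 was higher by 0.69 (adjusted p = 0.00016), at 7.30, 8.38 and 9.21 in set 96 and 15.5, 18.2 and 19.6 in set 100. AT3G26960 was higher by 0.67 (adjusted p = 0.0024), at 12.6, 11.5 and 13.3 and 25.5, 24.6 and 22.2. AT5G41460, AT5G45650, AT5G44400 and AT5G52540 were higher by 0.45, 0.43, 0.39 and 0.34 (adjusted p = 0.013, 0.0037, 0.024 and 0.018). AT1G52770 was lower by the test, at -0.48 (adjusted p = 0.013), with the arrays of both sets under the filter intensity. The arrays of set 100 lay above those of set 96 for the 6 and below for AT1G52770, orders that 27.6% and 21.0% of all probe sets had. AT1G76620 and AT1G52770 lay under the filter intensity on every medium array and were tested only through their soil arrays; of the other 12, 5 were called higher and none lower.

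Of these, AT1G76620, AT3G26960 and AT5G45650 were called without any single array. Calls were lost for AT5G44400 without 96 A, 96 B, 100 A or 100 C (adjusted p = 0.065 to 0.08), for AT5G52540 without 96 B, 96 C or 100 C (0.076 to 0.1), for AT5G41460 without 96 A or 100 C (0.058 to 0.079), and for AT1G52770 without 96 A or 100 A (0.057 to 0.099). The count was 4 without 96 A or 100 C and after quantile normalization, and 5 without both arrays of lowest BioB.

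With sucrose, set ATGE_101 was called lower than set 97 for 3 of the 14 and higher for none. Of all probe sets, 17.7% were called lower and 19.1% higher (36.8% together). The count called lower is near its share over all probe sets, so nothing is read from that count. The median log2 difference was -0.12 over the 14 and 0.01 over all probe sets. AT1G73600 was lower by the widest margin, at 303, 310.2 and 345 in set 97 and 175, 168 and 148 in ATGE_101, or -0.93 on the log2 scale (adjusted p = 8.6e-06), and it was called without any single array. AT3G60440 (-0.36, adjusted p = 0.037) stood at 28.8, 30.5 and 42.1 and 25.6, 25.5 and 22.5, and AT5G15950 (-0.33, adjusted p = 0.042) at 96.9, 92.5 and 95.1 and 68.6, 68.2 and 86.6. The arrays of ATGE_101 lay below those of set 97 for 7 of the 14: these 3 and, not called, AT5G52540, 248527_at, AT5G45650 and AT5G44400. They lay above for AT4G34950, also not called. Of all probe sets, 25.9% had the former order and 27.7% the latter. AT3G60440 lost its call without 97 C or any array of set ATGE_101 (adjusted p = 0.057 to 0.23), and AT5G15950 without any array of set 97, ATGE_101_A or ATGE_101_B (0.071 to 0.15). The count was 1 without 97 C, without ATGE_101_A, without both arrays of lowest BioB, or with no filter on low values. Probe set 248527_at of AT5G50740 missed the threshold at -0.40 (adjusted p = 0.053).

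**Figure D4:**
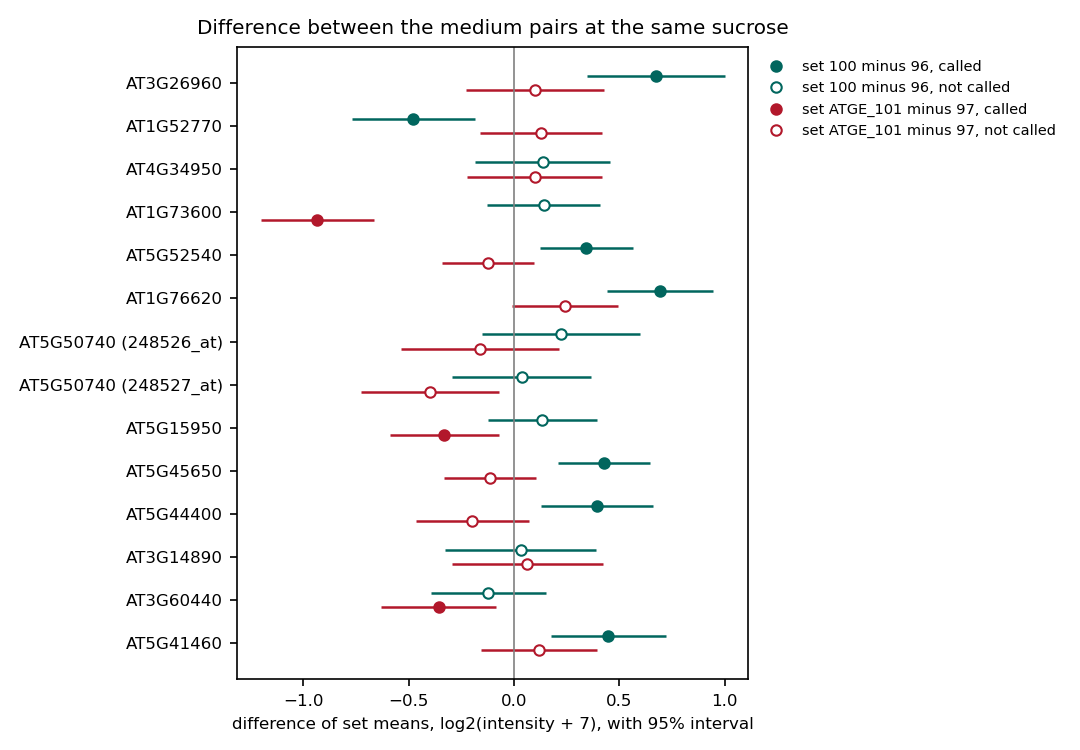
Difference of set means on the scale log2(intensity + 7), with 95% intervals from limma, for set 100 minus 96 (green, no sucrose) and ATGE_101 minus 97 (red, with sucrose); filled points were called. Set 100 was called higher for 6 of 14 probe sets and lower for AT1G52770, beside 17.7% and 12.7% of all probe sets. ATGE_101 was called lower for 3, beside 17.7% of all probe sets, with AT1G73600 farthest at -0.93.

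By their locus IDs the 13 genes lie on chromosomes 1 (3 genes), 3 (3), 4 (1) and 5 (6), and none on chromosome 2. Chromosome 5 held 46.2% of them and 24.5% of all locus-only genes at this level, a difference given without a test. No 2 of them were neighbours in the gene order of RefSeq's TAIR10.1 table; the closest, AT5G44400 and AT5G45650, stood 181 genes apart in that order. Of 52 positions within 2 genes of these genes, 21 probe sets of 20 genes could be read, beside 11 of the 13 genes. None of the 21 had a gap of 0.8, and the highest was 0.04, for AT4G34960 next to AT4G34950. Only 8 of the 21 reached a set mean of 60, and just 17 of the 5017 locus-only probe sets at that level had such a gap. Nothing is therefore read from its absence among the neighbours.

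Neighbours lay either way between soil and medium, and those with the largest differences each way are given here. AT5G44380, 2 genes before AT5G44400, had set means of 3.83 to 10.1 on soil and 38.3 to 135 on medium, a log2 difference of -2.48 between soil and medium. AT1G76600, 2 genes before AT1G76620, had set means of 50.1 to 314 on soil and 435 to 764 on medium (-2.61). AT5G44410, directly after AT5G44400, had 30.9 to 46.1 and 17.8 to 38.0 (0.39).

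Among 959 probe sets of a gene with a symbol at the same level, 11 (1.15%) met the same limits, as did 10 of the 5282 with no gene name at that level. As they were picked by the same values, they are named as a description. LHCB4.3, an antenna protein of photosystem II, had set means of 880 to 1342 on soil and 167 to 274 on medium, and THIC, an enzyme of thiamine synthesis, 1294 to 2095 and 474 to 656. CCS, the copper chaperone of superoxide dismutase, had 324 to 628 and 42.6 to 117, and ARPN, a plantacyanin, which is a small copper protein, 92.8 to 136 and 15.0 to 24.4. RR16 and ARR15, response regulators of cytokinin signalling, had 92.4 to 213 and 38.4 to 60.6 on soil and 10.5 to 28.2 and 11.7 to 15.3 on medium. The other 5 were TBL26, ATLP-1, scpl46, BGLU47 and GIS, the last a zinc finger protein of trichome development, with gaps of 0.86 to 1.27. The gaps of all 11, from 0.86 to 1.67, lie within the range of the 14 probe sets described here.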

How the data were processed

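The deposited values are intensities on a linear scale, 1 per probe set and array. MAS5 is named in the submitters' processing notes, without a version, and the 2% trimmed mean of every array was 100, so the authors had scaled the arrays. Of 22810 rows 64 controls were left out, except for the quality ratios. Tests covered probe sets above 22.8, the 40th percentile, on 3 or more arrays (15477 of 22746), and all 14 described here were tested. Values were taken as log2(intensity + 7), which understates folds near that level. The limma package (3.58.1, under R 4.3.3, tables read by the data.table package, version 1.17.8) fitted 8 set means to all 24 arrays, two-sided (16 residual, 4.83 prior degrees of freedom). Benjamini-Hochberg adjustment ran over the 15477, and a call is an adjusted p under 0.05. An exact permutation test of 3 against 3 arrays cannot go below 0.1. Gene names came from the array annotation given here, and gene order came from RefSeq's TAIR10.1 table. The number of arrays limits the precision.

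The 14 probe sets, the marker lists, the tests and alternatives and the naming rule were all chosen with earlier results of these data known. By that rule every probe set of the 14 was named with its gap, with the 3 highest and 3 lowest called differences in each comparison and the 3 genes on either side of the limit. Other called genes, other neighbours and genes with a symbol were named after their values were seen. Planned product classes and promoter words were not used, for want of product names and sequences here. Of the further marker lists, those for phosphate, nitrate, salicylate, abscisic acid and touch had no named gene, and those for iron and heat 1 each, below the filter. Alternatives were the pseudocount divided by 4 (1.75) or taken 4 times (28), quantile normalization, scaling to a common 75th percentile, no filter on low values or a stricter one (61.5), a fit to only the sets compared, a block for the replicate letter, limma's trend and robust options, leaving out each array and, chosen after seeing the data, leaving out both arrays of lowest BioB. The procedure was tested on simulated data.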

Additional observations from a re-analysis of the deposited data

Results flagged for a closer look

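The effect of sucrose differed between the medium pairs for 4 probe sets, by limma's test of the difference itself (ATGE_101 minus 100 less 97 minus 96). The log2 differences were -1.07 for AT1G73600, -0.47 for AT5G52540, -0.54 for AT5G45650 and -0.59 for AT5G44400, with adjusted p of 0.00071, 0.046, 0.022 and 0.038. In each of them both pairs had a positive difference with sucrose, which was smaller in the second pair. What else differs between the pairs is not reported here, and its part was not tested. Only for AT1G73600 among these 4 did the call hold without any single array.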

How the results depend on the processing

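Counts of the 14 probe sets called moved by over 1.5 times under several settings. For the difference of the sucrose effects (4) the count was 7 with the pseudocount divided by 4 and 2 with 4 times it, with no filter, after quantile normalization and without both arrays of lowest BioB. For ATGE_101 minus 100 (4) it was 2 with 4 times the pseudocount and after quantile normalization, and 0 without those arrays. For ATGE_101 minus 97 (3) it was 1 with no filter or without those arrays. For 100 minus 96 (7) it was 4 after quantile normalization, and for 24 minus 23 (0) it was 1 with 4 times the pseudocount. The number of probe sets chosen (14) was 6 with 4 times the pseudocount, 22 after quantile normalization, 36 with a limit of 0.6 and 8 with a limit of 1. Leaving out single arrays gave 9 to 10 calls for 97 minus 96, 1 to 5 for ATGE_101 minus 100, 1 to 6 for the difference, 4 to 7 for 100 minus 96, 1 to 4 for ATGE_101 minus 97 and 0 to 1 for 24 minus 23, and 13 to 17 probe sets chosen. The stricter filter left 13 of the 14 in the tests. The causes were not tested.

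Reversals were found only in differences that were not called. For 97 minus 96, AT3G14890 (0.01) was -0.0026 with the pseudocount divided by 4, -0.16 after quantile normalization and -0.024 at a common 75th percentile, and -0.16 to 0.23 without single arrays, and AT4G34950 was -0.092 to 0.066. For ATGE_101 minus 100, quantile normalization gave -0.058 for AT1G76620, -0.099 for 248527_at and -0.064 for AT3G14890, the 75th percentile gave -0.017 for 248527_at, and leaving out both arrays of lowest BioB gave 0.016 for AT4G34950 and -0.093 for 248527_at. Without single arrays these ran from -0.18 to 0.042 (AT4G34950), -0.017 to 0.10 (AT1G76620), -0.14 to 0.049 (248526_at), -0.16 to 0.10 (248527_at), -0.011 to 0.15 (AT5G15950) and -0.084 to 0.24 (AT3G14890). The difference of the effects was 0.036 for AT4G34950 without both arrays of lowest BioB, and without single arrays -0.16 to 0.063 for it and -0.19 to 0.23 for AT3G14890.

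With the replicate block the counts were 10 for 97 minus 96, 4 for ATGE_101 minus 100, 4 for the difference, 7 for 100 minus 96, 3 for ATGE_101 minus 97 and 0 for 24 minus 23, as without it, but not all calls were shared. For the difference, AT5G52540 lost its call (adjusted p = 0.059). AT1G52770, under the filter intensity on every medium array, gained one, the other way (0.043). For ATGE_101 minus 97, AT5G15950 lost its call (0.055) and 248527_at gained one (0.043). No other call of the 14 changed. Deviations of arrays with the same letter correlated at -0.18 to 0.16 over 84 pairs of arrays, with 2 above 0.1. Those of arrays with other letters correlated at -0.20 to 0.26 over 168 pairs, with 9 above 0.1. Whether arrays of a letter shared their handling was not tested. No depth is known for arrays; for the 8 probe sets with a medium array under the filter intensity, differences on medium depend on the pseudocount.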
